A study of Danio rerio with 116 samples.

Results

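Unplaced scaffolds are pieces of the zebrafish assembly that have a sequence but no chromosome. They were taken here as every CG call whose chromosome column is neither 1 to 25 nor MT, the mitochondrial genome, which gave 89829 of 3648141 calls (2.46%). The calls fell on 974 scaffolds, all with names of the KN series. Of these, 251 scaffolds had at least 100 calls over all libraries together and are described singly, and they held 66201 of the scaffold calls (73.7%). The study isolated germline cells from fish of the Tg(vasa:EGFP) line by fluorescence-activated cell sorting and measured their CG methylation by low coverage whole genome bisulfite sequencing. A call is the state of 1 cytosine of a CG dinucleotide in 1 read, methylated or not. There were 59 libraries of EGFP +ve cells and 57 libraries of EGFP −ve control cells from the same line, at 14 ages between 1 and 70 days post-fertilisation (dpf). Libraries of 1 to 28 dpf came from pools of 10 fish without separation of the sexes, and from 35 dpf each library came from 1 presumptive female or male. Whole fish were dissociated up to 14 dpf and the gonadal region after that, so the control cells are of mixed types and change in origin with age. The reporter is driven by the vasa promoter, which is active in the germline, so that the sorted cells were chosen by its fluorescence. With 3 libraries for each kind of cell, age and sex, only the EGFP +ve group of 28 dpf was larger, with 5.

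CG methylation in vertebrates covers most of the genome and is copied at each cell division by the maintenance methyltransferase Dnmt1. Active promoters and CG-rich islands usually lack it, while transposable elements and other repeats usually carry it. Sequence stays unplaced mostly where repeats, duplicated gene families or structural differences between haplotypes stop an assembly from being joined. Zebrafish chromosome 4, whose long arm is rich in repeats and late replicating, is therefore of interest beside the scaffolds. No genes are given for the scaffolds in the files and no sequence of their assembly was used, so the scaffolds are named without annotation.

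Libraries held between 204 and 3819 scaffold calls with a median of 577.5. These came from 57 to 1047 reads and from 48 to 437 scaffolds per library. The 95% Wilson interval of scaffold methylation in a library had a median width of 6.21 percentage points, and it covers counting error only, since calls of 1 read and PCR copies of 1 molecule are not independent. In 22 EGFP +ve libraries the last part of chromosome 4, after 76 Mb, took more than 1% of all calls and up to 58.3%. This end was left out of the chromosomes, so that the share of scaffold calls is given relative to scaffolds plus the remaining calls of chromosomes 1 to 25. Read names placed the libraries on 8 sequencing runs.

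The share of calls on scaffolds lay in a similar range in both kinds of cell. It was between 1.92% and 3.70% in EGFP +ve libraries with a median of 2.57%, and between 1.96% and 3.39% in control libraries with a median of 2.54%. The ranges overlapped almost completely. The lowest library was EGFP +ve replicate B at 2 dpf, with 1.92% (95% Wilson interval 1.67% to 2.20%), and the highest was EGFP +ve replicate C at 28 dpf, with 3.70% (3.44% to 3.99%). Both extremes were of EGFP +ve cells, and they rest on 64 and 145 scaffold reads.

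**Figure D1:**
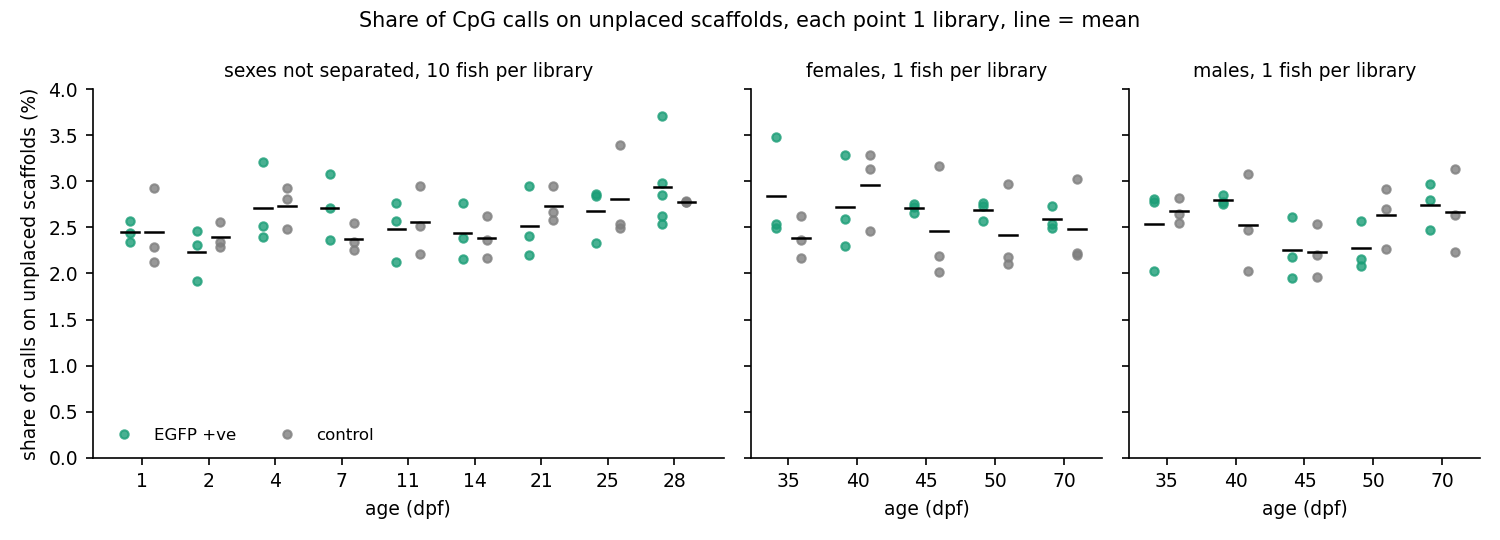
Share of CG calls on unplaced scaffolds (percent of calls on scaffolds and chromosomes 1 to 25, y axis) by age in dpf (x axis) for fish pools, females and males. Each point is 1 library of EGFP +ve (green) or control (grey) cells and the line is the group mean. Points of both kinds of cell lie between 1.92% and 3.70% and overlap at most ages.

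Between EGFP +ve and control cells the share did not differ beyond the spread of the libraries. Averaged over the 9 ages from 1 to 28 dpf, EGFP +ve minus control cells gave -0.00565 percentage points, with means of 2.60% ± 0.370 (SD, n = 29) against 2.58% ± 0.300 (SD, n = 27) (permutation test, two-sided, p = 0.945, adjusted p = 0.970). In females of 35 to 50 dpf the means were 2.74% ± 0.331 (SD, n = 12) in EGFP +ve cells, against 2.55% ± 0.465 (SD, n = 12) in controls (exact permutation test, p = 0.284, adjusted p = 0.568). In males of these ages they were 2.46% ± 0.350 (SD, n = 12) in EGFP +ve cells, against 2.51% ± 0.349 (SD, n = 12) in controls (exact permutation test, p = 0.700, adjusted p = 0.933). At 70 dpf they were 2.67% ± 0.200 (SD, n = 6) in EGFP +ve cells, against 2.57% ± 0.422 (SD, n = 6) in controls (exact permutation test, p = 0.625, adjusted p = 0.933). All p-values of the share were adjusted by Benjamini-Hochberg over 8 comparisons.

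Sex and age gave the largest differences in share, and neither passed the adjustment. EGFP +ve cells of females at 35 to 50 dpf exceeded those of males by 0.277 percentage points, with means of 2.74% and 2.46% (exact permutation test, two-sided, p = 0.0594, adjusted p = 0.237). With the end of chromosome 4 kept in the total this difference was -0.114 points. Control cells of females at 35 to 70 dpf had a mean of 2.539% ± 0.450 (SD, n = 15) and those of males 2.545% ± 0.358 (SD, n = 15), a difference of -0.00580 points (exact permutation test, p = 0.970). EGFP +ve cells of 1 and 2 dpf had 2.34% ± 0.225 (SD, n = 6) and those of 4 to 28 dpf had 2.67% ± 0.374 (SD, n = 23) (exact permutation test, two-sided, p = 0.0519, adjusted p = 0.237). In control cells the same ages had 2.42% ± 0.284 (SD, n = 6) and 2.62% ± 0.294 (SD, n = 21) (exact permutation test, p = 0.145, adjusted p = 0.387). The sign for age was the same in both kinds of cell, within the spread of the libraries. Age and sequencing run cannot be told apart for the libraries of 2 dpf, whose run held no library of 4 to 28 dpf.

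Scaffolds were a few points more methylated than the chromosomes of the same library. Pooled over all libraries, 81.04% of scaffold calls were methylated, against 78.1% of the calls of chromosomes 1 to 25. Without KN149861.1, the scaffold with most calls, the scaffold value was 80.1%, so part of the pooled excess came from this scaffold. Single chromosomes ranged from 76.9% to 80.98%, and chromosome 4 without its end was the highest of them. In the same library, scaffold methylation exceeded chromosome methylation by 2.99 percentage points in EGFP +ve cells, with 82.5% ± 4.18 on scaffolds and 79.5% ± 3.24 on chromosomes (SD, n = 59; permutation test of paired differences, two-sided, p = 1e-05, the smallest possible), and scaffolds were higher in 46 of 59 libraries. In control cells the excess was 3.68 points, with 80.5% ± 2.89 on scaffolds and 76.8% ± 1.95 on chromosomes (SD, n = 57; same test, p = 1e-05), and scaffolds were higher in 50 of 57 libraries. The excess of EGFP +ve cells minus that of control cells was -0.60 points over ages and sexes (permutation test, p = 0.338). Set against chromosome 4 alone, a comparison added after seeing the data, the excess was -0.0503 points in EGFP +ve cells (permutation test, p = 0.927) and 0.839 points in control cells (permutation test, p = 0.0906).

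**Figure D2:**
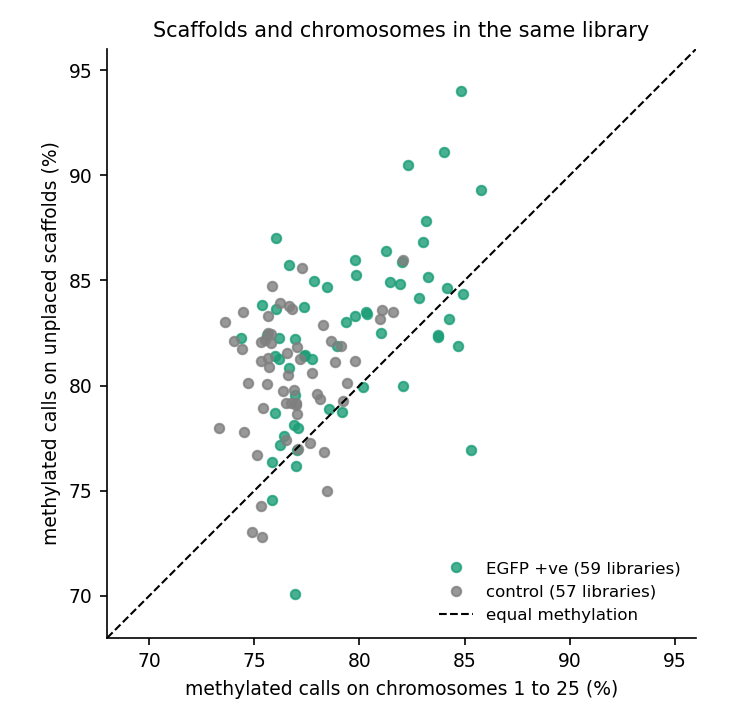
Methylated calls on unplaced scaffolds (percent, y axis) against methylated calls on chromosomes 1 to 25 without the end of chromosome 4 (percent, x axis). Each point is 1 library, green for EGFP +ve and grey for control cells, and the dashed line marks equal values. Most points lie above the line, 46 of 59 for EGFP +ve and 50 of 57 for control cells.

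The difference between scaffolds and chromosomes varied with the number of calls in a read. Scaffold reads had 3.79 calls on average, against 3.33 on chromosomes, and 5.97% of scaffold reads had 10 or more calls, against 3.03% of chromosome reads. In these dense reads 81.4% of scaffold calls were methylated, against 69.1% of chromosome calls, and without the 6 scaffolds described below it was 75.3%. In reads with 4 to 9 calls it was 82.1% on scaffolds and 78.9% on chromosomes, and in reads with 2 to 3 calls 80.3% on scaffolds and 80.2% on chromosomes. Reads with 1 call were the reverse, with 74.3% on scaffolds and 77.9% on chromosomes. Without the same 6 scaffolds the single-call reads had 79.8%, reads with 2 to 3 calls 81.2% and reads with 4 to 9 calls 82.2%. Scaffolds were then higher than chromosomes in every class of reads. When each read counted once, in place of each call, the excess was 0.280 points in EGFP +ve cells (permutation test, p = 0.455) and 1.21 points in control cells (permutation test, p = 0.00171). Without the 6 scaffolds as well, an alternative added after seeing the data, it was 2.02 points in EGFP +ve cells and 2.53 points in control cells (permutation test, p = 1e-05 for both, the smallest possible). The 6 were taken out of the scaffolds only, which moved the scaffold mean over all reads from 79.5% to 81.1%. Chromosome stretches with as many calls per position stayed in, so these p-values are no independent support for an excess. Among reads with at least 4 calls, 6.75% were wholly unmethylated on scaffolds, against 10.2% on chromosomes, and 53.8% were wholly methylated on scaffolds, against 52.0% on chromosomes. Duplicates, reads whose calls repeat those of another read of that library in place and strand, made up 1.60% of scaffold reads and 0.454% of chromosome reads.

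EGFP +ve cells had a higher mean scaffold methylation than control cells at most ages before 70 dpf, without passing the adjustment in any age group. Scaffold methylation was 70.1% to 94.0% in EGFP +ve libraries with a median of 82.4%, and 72.8% to 86.0% in control libraries with a median of 81.1%. The groups overlapped. Over 1 to 28 dpf the means were 82.0% ± 4.66 (SD, n = 29) in EGFP +ve cells, against 80.6% ± 2.61 (SD, n = 27) in controls, a difference of 1.67 percentage points averaged over ages (permutation test, two-sided, p = 0.0836, adjusted p = 0.167). In females of 35 to 50 dpf they were 83.4% ± 3.36 (SD, n = 12) in EGFP +ve cells, against 80.3% ± 3.41 (SD, n = 12) in controls, 3.16 points apart (exact permutation test, p = 0.0256, adjusted p = 0.107), with a higher EGFP +ve mean at 4 of 4 ages. In males they were 83.1% ± 4.71 (SD, n = 12) in EGFP +ve cells, against 79.5% ± 3.11 (SD, n = 12) in controls, 3.64 points apart (exact permutation test, p = 0.0400, adjusted p = 0.107), higher at 3 of 4 ages. At 70 dpf the sign was the other way, with 81.5% ± 1.33 (SD, n = 6) in EGFP +ve cells, against 82.7% ± 1.67 (SD, n = 6) in controls (exact permutation test, p = 0.145, adjusted p = 0.193). None of the 8 comparisons of scaffold methylation passed the adjustment, and 3 had an unadjusted p under 0.05. When each read counted once, EGFP +ve minus control cells passed it in females of 35 to 50 dpf, with 4.27 points, and in males, with 5.13 points (exact permutation test, adjusted p = 0.0158 for both).

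**Figure D3:**
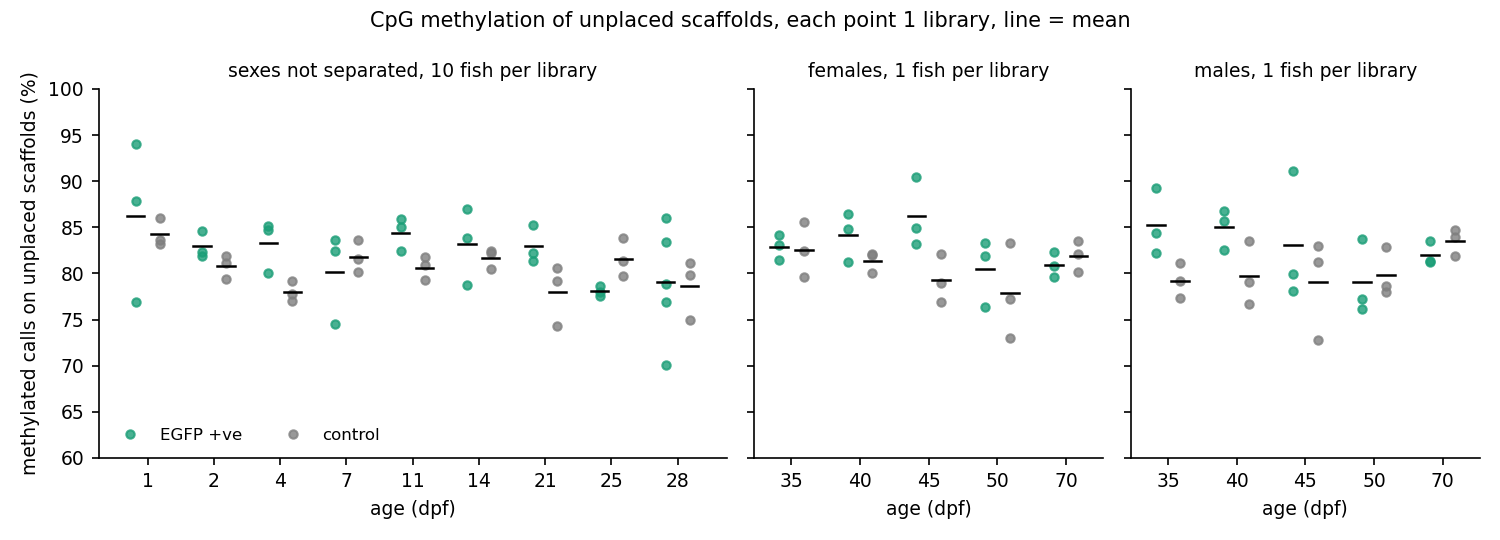
Methylated calls on unplaced scaffolds (percent, y axis, starting at 60) by age in dpf (x axis) for fish pools, females and males. Each point is 1 library of EGFP +ve (green) or control (grey) cells and the line is the group mean. EGFP +ve libraries spread from 70.1% to 94.0% and control libraries from 72.8% to 86.0%.

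With all ages and sexes in 1 comparison, a test added after seeing the data, EGFP +ve cells were 2.09 points more methylated on scaffolds than control cells (permutation test, two-sided, p = 0.00162) and had the higher mean in 14 of 19 groups of age and sex. Without replicate A of every group the difference was 1.42 points (permutation test, p = 0.0707). Within sequencing runs it was 2.86 points (permutation test, p = 0.00071). On chromosomes 1 to 25 the same comparison gave 2.70 points (permutation test, p = 1e-05, the smallest possible), with a higher EGFP +ve mean in 17 of 19 groups. At 1 and 28 dpf the EGFP +ve libraries were spread more widely on scaffolds, with SDs of 8.65 and 6.16 points, than on chromosomes, with SDs of 1.12 and 1.56 points. This was not particular to them. Control males of 45 dpf had SDs of 5.47 on scaffolds and 1.78 on chromosomes, while EGFP +ve males of 35 dpf had 3.62 and 6.36. Scaffolds hold far fewer calls per library, so their counting error is larger, and its part in the spread was not tested. At 1 dpf the EGFP +ve replicates A, B and C had 94.0%, 76.9% and 87.8% on scaffolds, from 285, 295 and 312 calls, while their chromosomes had 84.8%, 85.3% and 83.2%. The control replicates of this age had 83.2%, 83.6% and 86.0% on scaffolds, from 220, 658 and 328 calls. Replicate B of the EGFP +ve cells was the library farthest below its own chromosomes, by -8.34 points. At 28 dpf the EGFP +ve replicates A to E had 76.9%, 83.4%, 70.1%, 78.9% and 86.0% on scaffolds, and replicate C, with 70.1%, was also the library with the largest share of scaffold calls.

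No difference between the sexes in scaffold methylation passed the test. EGFP +ve cells of females minus males at 35 to 50 dpf gave 0.340 points, with means of 83.4% and 83.1% (exact permutation test, two-sided, p = 0.822), and control cells of females minus males at 35 to 70 dpf gave 0.340 points, with means of 80.6% ± 3.17 (SD, n = 15) and 80.3% ± 3.27 (SD, n = 15) (exact permutation test, p = 0.767). The difference between EGFP +ve and control cells in females minus that in males was -0.481 points (permutation test, p = 0.814). Embryos had the higher mean in both kinds of cell, without passing the adjustment. All libraries of 2 dpf were on a sequencing run that held no library of 4 to 28 dpf. Age and run cannot be told apart for them. EGFP +ve cells of 1 and 2 dpf had 84.6% ± 5.84 (SD, n = 6) and those of 4 to 28 dpf 81.4% ± 4.19 (SD, n = 23), 3.22 points apart (exact permutation test, p = 0.136, adjusted p = 0.193). Control cells had 82.5% ± 2.27 (SD, n = 6) and 80.1% ± 2.47 (SD, n = 21), 2.47 points apart (exact permutation test, p = 0.0376, adjusted p = 0.107). When each read counted once, both differences passed the adjustment, with 4.43 points in EGFP +ve cells (exact permutation test, adjusted p = 0.0316) and 3.64 points in control cells (exact permutation test, adjusted p = 0.0158). The chromosomes of the same libraries differed by 5.98 points in EGFP +ve cells and 3.88 points in control cells. EGFP +ve libraries of 1 and 2 dpf had an SD of 0.778 points on chromosomes.

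Single scaffolds differed far more from each other than whole chromosomes did. The middle part of their values was narrower than that of chromosome stretches of like size, given below. The methylation of the 251 scaffolds ran from 16.5% to 95.4% with a median of 83.0%, and the middle part from the 25th to the 75th percentile lay between 77.4% and 87.6%. There were 151 scaffolds above the highest chromosome, 60 below the lowest and 40 between. Whole chromosomes average over more calls, so windows of 50 kb, near the median length of 50800 bases up to the last call of a scaffold, were used as a description of chromosome stretches of like size. Among 18089 such windows with at least 100 calls the median was 81.2%, with 72.7% and 86.4% at the 25th and 75th percentiles. The 675 windows of chromosome 4 had a median of 83.2%, with 73.9% and 88.0% at these percentiles. Of the scaffolds 14.3% were methylated at 90% or more, against 9.45% of all windows and 14.4% of the windows of chromosome 4. Under 50% lay 2.79% of the scaffolds, against 3.54% of all windows and 3.56% of the windows of chromosome 4. Across the 251 scaffolds, methylation had a Spearman's rho of 0.0967 with calls per read and 0.0537 with the last position, given as a description of scaffolds that share the same libraries.

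**Figure D4:**
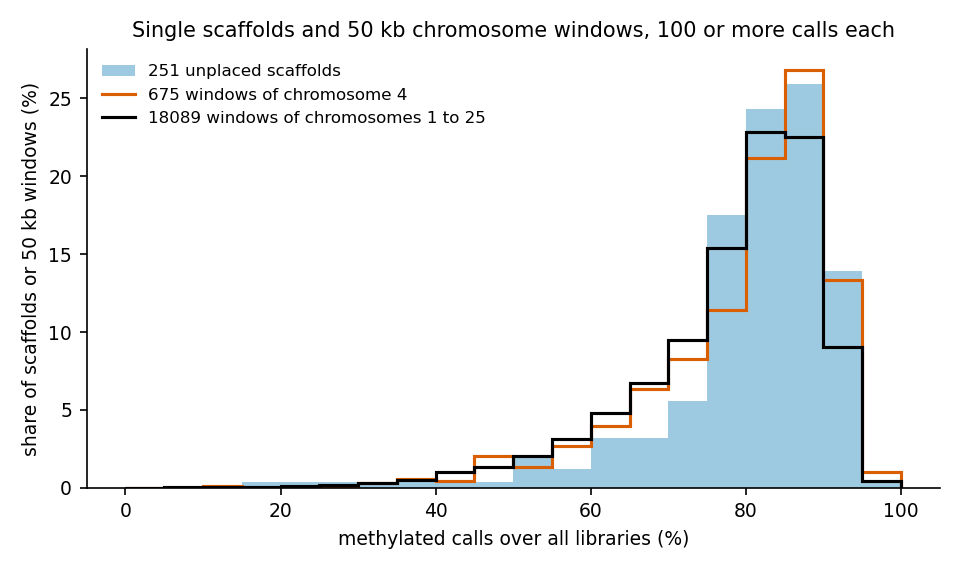
Distribution of methylation (percent of calls over all libraries, x axis, in steps of 5 percentage points) for 251 unplaced scaffolds (blue), 675 windows of chromosome 4 (orange) and 18089 windows of chromosomes 1 to 25 (black), each with at least 100 calls. The y axis is the share of scaffolds or windows in percent. Scaffolds have a median of 83.0%, near the 83.2% of chromosome 4 and above the 81.2% of all windows.

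The limit of 100 calls had 3 scaffolds just inside it, with 100 calls and a methylation of 82.0% to 88.0%, and 4 just outside, with 99 calls and 48.5% to 86.9%. The 723 scaffolds under the limit held 23628 calls, of which 78.6% were methylated, against 81.9% on the 251 scaffolds described singly.

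The 5 most methylated scaffolds were KN150156.1, KN150637.1, KN149856.1, KN150141.1 and KN150172.1. KN150156.1 had 95.4% of 151 calls from 29 reads (95% Wilson interval 90.7% to 97.7%), and KN150172.1, the last of them, 93.8% of 144 calls. Their intervals overlapped. In EGFP +ve cells KN150156.1 had 95.7% and in control cells 95.1%, from 70 and 81 calls.

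The 5 least methylated scaffolds were KN150271.1, KN149738.1, KN150199.1, KN150319.1 and KN150265.1. KN150271.1 had 16.5% of 266 calls (95% Wilson interval 12.6% to 21.5%), with 16.4% in EGFP +ve cells and 16.7% in control cells. Both kinds of cell were alike on it, and its 257 reads came from 94 libraries. Its calls lay on only 41 positions, with 103 calls on position 1109 and 72 on position 906, so its value describes few cytosines. KN149738.1 had 24.5% of 143 calls, with 31.9% of 69 calls in EGFP +ve cells and 17.6% of 74 calls in control cells. KN150199.1 had 28.1% of 128 calls, with 26.5% of 83 calls in EGFP +ve cells and 31.1% of 45 calls in control cells. These calls came from only 25 and 19 reads. KN150319.1 had 34.9% of 175 calls and KN150265.1 39.1% of 156 calls. KN150319.1 had 33.3% in EGFP +ve cells and 36.2% in control cells, and KN150265.1 had 38.8% in EGFP +ve cells and 39.3% in control cells. These values rest on 31 and 35 reads, too few to show that the kinds of cell are alike. Apart from KN150271.1, the scaffolds at the low end had between 4.46 and 6.74 calls per read, above the 3.85 of the median scaffold. This was not particular to the low end. Among the 5 most methylated, KN150156.1 and KN150141.1 had 5.21 and 5.46, while KN150637.1, KN149856.1 and KN150172.1 had 3.70, 3.775 and 3.69.

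KN149861.1 stood out by its number of calls. The 10 scaffolds with most calls, KN149861.1, KN150127.1, KN150411.1, KN150474.1, KN150691.1, KN150375.1, KN150460.1, KN150222.1, KN150681.1 and KN149688.1, held 19.9% of them, and KN149861.1 alone held 9075 calls (10.1%). KN149861.1 had calls only up to position 14273, which makes 635.8 calls per kb, against 3.43 for the median scaffold and 2.10 to 2.86 for chromosomes. KN150127.1 had 2966 calls over 32795 bases. KN150411.1 followed with 949 calls, 88.0% methylated, and KN150474.1 with 866 calls, 81.2% methylated. The other 6 had between 577 and 795 calls and a methylation of 77.4% (KN150460.1) to 90.4% (KN150222.1).

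Calls piled up on the same positions in 6 scaffolds. A position is counted per strand, so a CG dinucleotide has a position on each. The median scaffold had 1.10 calls per position and chromosomes had 1.10 to 1.16, whereas KN150160.1 had 12.2, KN149861.1 7.58, KN150271.1 6.49, KN150127.1 5.16, KN149692.1 4.63 and KN149693.1 3.63. The next scaffold had 1.92. This group and its limit of 3 calls per position were chosen after seeing the values. The limit was reached by 2.39% of the scaffolds, 0.105% of all 50 kb windows of chromosomes and 0.593% of the windows of chromosome 4. The last calls of the 6 lay between positions 9212 and 42999. Windows are longer, so a pile of the same size raises their calls per position less, and these percentages are not like for like. The 6 held 13250 calls (14.8% of scaffold calls), 82.4% methylated, and the other scaffolds together were 80.8% methylated. On KN150160.1, 281 calls lay on 23 positions, and 204 of them between 6001 and 7000. The position with most calls there, 6309, had 91 calls in 48 libraries, 82.4% methylated. On KN149692.1, 86 of 176 calls fell between 16001 and 17000, all on the adjacent positions 16996 and 16997. They were 83.7% methylated in EGFP +ve cells and 74.4% in control cells, from 43 calls each, a difference that was not tested.

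Methylation changed along KN149861.1, KN150127.1 and KN150271.1 in both kinds of cell. On KN149861.1 the first 1000 bases had 52.3% in EGFP +ve cells and 47.7% in control cells, and the next 1000 bases had 69.8% in EGFP +ve cells and 70.1% in control cells. The 6 windows between 4001 and 10000 held 772 to 1495 calls each and were methylated at 89.0% to 95.05% in EGFP +ve cells and at 89.2% to 94.6% in control cells. This stretch was CG-dense, with 154 to 211 positions with a call per 1000 bases. On KN150127.1 the window from 1001 to 2000 had 12.2% of 148 calls in EGFP +ve cells and 5.83% of 120 calls in control cells, beside 64.3% in EGFP +ve cells and 58.2% in control cells in the window from 2001 to 3000. The window from 25001 to 26000 of KN150127.1 had 22.5% of 111 calls in EGFP +ve cells and 51.1% of 88 calls in control cells, from 38 reads, and was not tested since it was picked after its values were seen. On KN150271.1 the first 1000 bases had 26.8% of 41 calls in EGFP +ve cells and 35.3% of 51 calls in control cells, and the next 1000 bases 4.62% of 65 calls in EGFP +ve cells and 3.49% of 86 calls in control cells. Position 1109 of KN150271.1 alone had 103 calls, 2.91% methylated, in 59 libraries.

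**Figure D5:**
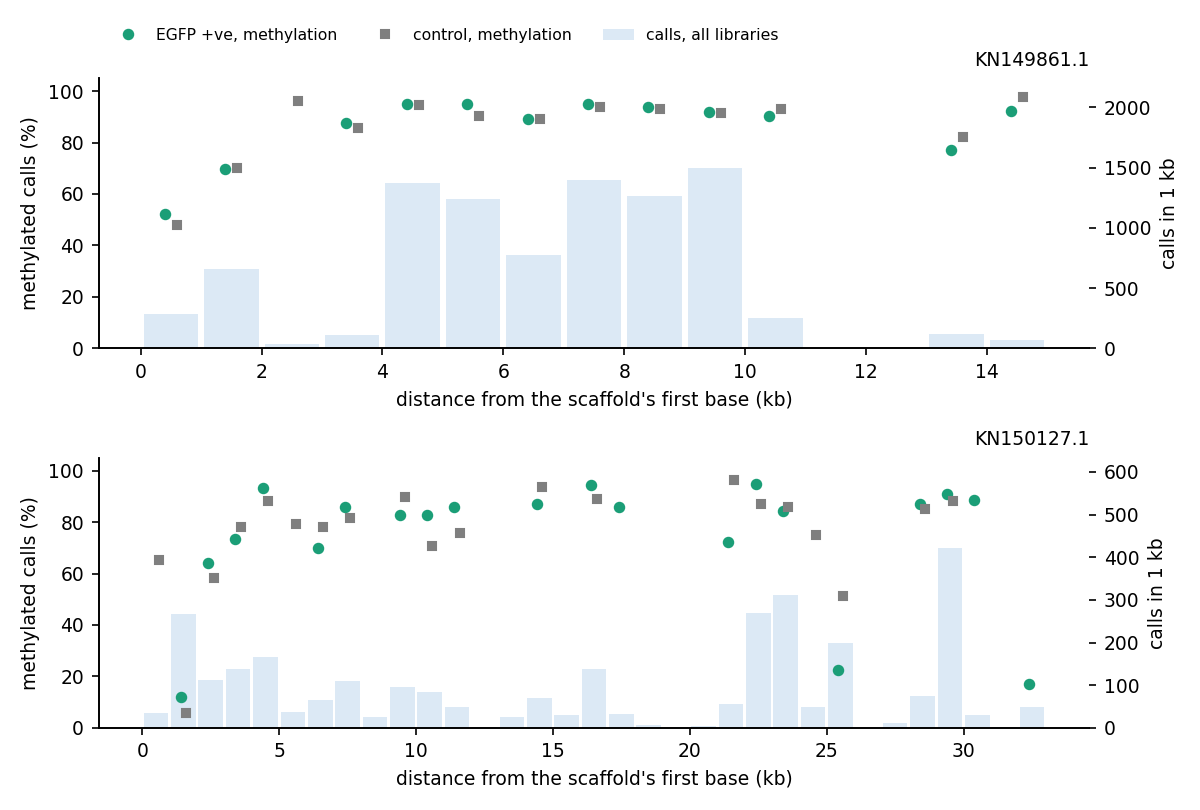
Methylated calls (percent, left axis) in windows of 1 kb along KN149861.1 (top) and KN150127.1 (bottom), by distance from the first base of the scaffold in kb (x axis), for EGFP +ve (green circles) and control (grey squares) cells with at least 20 calls in the window. Pale bars give the calls of all libraries in the window (right axis). KN149861.1 is below 71% in its first 2 windows and above 88% from 4 to 10 kb, and KN150127.1 has low values in the windows starting at 1 kb (12.2% and 5.83% in EGFP +ve and control cells), 25 kb (22.5% and 51.1%) and 32 kb (17.1% in EGFP +ve cells).

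KN149861.1 was found in 113 libraries and KN150127.1 in 115. KN149861.1 took a median of 10.9 reads per 10000 in EGFP +ve libraries (lowest 0, highest 26.8) and of 9.29 in control libraries (lowest 0, highest 42.2). Its ratio between the kinds of cell was 1.07 (Mantel-Haenszel score over libraries, permutation p = 0.551, adjusted p = 0.975). KN150127.1 took a median of 9.78 reads per 10000 in EGFP +ve libraries (0 to 25.3) and of 7.69 in control libraries (1.91 to 23.6), a ratio of 1.21 (same score, permutation p = 0.139, adjusted p = 0.975). Both varied more between libraries than counting allows. The chi-square of their reads over libraries was 2.85 times its degrees of freedom for KN149861.1 and 2.52 times for KN150127.1, where the median of the 251 scaffolds was 0.999 and the next scaffold had 1.56. KN149861.1 had 1122 reads and KN150127.1 988. For the same relative variation this measure is larger with more reads, so it does not show that scaffolds with fewer reads vary less. Both also varied with the sequencing run, KN149861.1 between 6.77 and 17.0 reads per 10000 and KN150127.1 between 6.30 and 13.5, and the part of the run in this spread was not tested. The highest runs of both were the same run of 3 libraries. In the EGFP +ve libraries of females at 35 to 50 dpf KN149861.1 had 10.1 reads per 10000 when pooled, against 9.89 in males. Of these 12 female libraries, 8 had more than 5% of their calls on the amplified end of chromosome 4. Single libraries had 2.79 to 17.7 reads per 10000 among the 8 and 6.06 to 17.1 among the others. Among the males, replicate B of 40 dpf had 3426 of its 13306 calls on that end. The pooled values therefore do not set amplified against other libraries, which was not tested.

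KN149861.1 had 90.2% methylation in EGFP +ve cells and 89.0% in control cells, a difference of 0.32 points over strata of age and sex (permutation test, p = 0.795). EGFP +ve cells of 1 and 2 dpf had 85.3% of 265 calls on it, those of 4 to 28 dpf 90.4% of 1535 calls, and those of 70 dpf 92.2% of 179 calls in females and 93.4% of 664 calls in males. Between the sexes KN149861.1 differed by the same sign in EGFP +ve cells of 35 to 50 dpf and in control cells of 35 to 70 dpf. In EGFP +ve cells of 70 dpf the sign was the other way. EGFP +ve cells of females at 35 to 50 dpf had 92.3% of 991 calls and those of males 85.0% of 708 calls (6.99 points, permutation test, p = 0.0113, adjusted p = 1). Over libraries with at least 10 calls on it the means were 92.5% ± 3.90 in females and 83.5% ± 9.92 in males (SD, n = 10 each), with the lowest male library at 59.2%. Control cells of females at 35 to 70 dpf had 92.7% of 980 calls and those of males 88.5% of 1532 calls (5.47 points, permutation test, p = 0.00787, adjusted p = 0.953). Neither passed the adjustment over all scaffolds and chromosomes. KN150127.1 had 71.6% in EGFP +ve cells and 74.2% in control cells (permutation test, p = 0.505).

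No scaffold was called for its share of the reads in EGFP +ve and control cells. Each of the 251 scaffolds and 25 chromosomes was tested with a Mantel-Haenszel score in which the library was the unit, and 0 of 276 were called at an adjusted p under 0.05 (0.0%). At an unadjusted p under 0.05 there were 8 scaffolds, where 3.26% of all features tested reached this. Ratios of single scaffolds ran from 0.411 to 3.03 with a median of 0.983. Between females and males, 0 scaffolds were called in EGFP +ve cells, with 11 at an unadjusted p under 0.05 (4.36% of all features), and 0 in control cells, with 10 (3.64%). In simulated data, 35 of 40 scaffolds made 3-fold higher in EGFP +ve cells were recovered, with 3 false calls. Reads were drawn independently there, and smaller changes were not simulated, while reads of KN149861.1 and KN150127.1 varied more than counting allows. These counts therefore do not give the recovery or the false calls on the real data.

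In methylation, KN150158.1 was the only scaffold called between EGFP +ve and control cells when scaffolds and chromosomes were adjusted together. It had 94.8% in EGFP +ve cells, with 110 methylated calls, and 82.9% in control cells, with 131 methylated calls, 19.3 points higher within strata (Mantel-Haenszel score, permutation p = 0.00134, adjusted p = 0.0195). The calls came from 34 reads in EGFP +ve cells and 42 in control cells. Over 6 groups of age and sex the lowest value was 90% in EGFP +ve cells and the highest was 85.7% in control cells. These groups divide the same calls by which the scaffold was picked, so they add no separate support. Single libraries with at least 10 calls on it overlapped, with 78.6% to 100% in 3 EGFP +ve libraries and 75% to 92.3% in 6 control libraries. At an unadjusted p under 0.05 there were 10 of 251 scaffolds and 23 of 25 chromosomes, where 12.0% of all features reached this. The call was lost without replicate A and without replicate B of every group. Beside it, 21 of 25 chromosomes were called, all higher in EGFP +ve cells, so that 22 of 276 features were called (7.97%). The adjusted p of KN150158.1 depends on these chromosomes, since the adjustment ran over scaffolds and chromosomes together and their small p-values ease it. An adjustment over the 251 scaffolds alone was not made. Its permutation p of 0.00134, the smallest among the scaffolds, would not pass such an adjustment, so the call rests on the joint one. Of the scaffolds 150 of 251 were higher in EGFP +ve cells, with a median difference of 2.34 points, against 25 of 25 chromosomes with a median of 2.42 points. In the simulation 15 of 40 scaffolds made 25 points less methylated in EGFP +ve cells were recovered, with 0 false calls. The simulation drew each call independently and left the chromosomes unchanged, while real calls of 1 read are not independent. Its counts therefore do not give the recovery or the false calls of the test on these data. A scaffold that was not called can still differ at this depth. Between females and males 0 scaffolds were called in EGFP +ve cells, with 3 of 232 scaffolds at an unadjusted p under 0.05, where 1.17% of all 257 features reached this. In control cells 0 were called, with 9 of 243 scaffolds at an unadjusted p under 0.05, where 4.1% of all 268 features did.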

How the data were processed

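Libraries came from a post-bisulfite protocol (PBAT), where bisulfite treatment precedes the addition of adaptors. Per the submitters' processing notes, the authors used Trim Galore and Bismark 0.19.0 with the build GRCz10, and deposited 1 line per CG call with read, chromosome, position and state, without normalization or pooling. The methods name GRCz11. The last call on chromosome 4, at 76624474, lies where GRCz10 ends, and no position was converted. For 6 libraries the titles give 11 dpf and the day field 7, and the titles were followed. Replicates are taken from the labels.

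Counting and tests used pandas 2.3.3, scipy 1.17.1 and numpy 2.4.6 under Python 3.11.15, and plots matplotlib 3.10.9. Calls on MT and after 76 Mb of chromosome 4 were left out. Methylation of a library is its pooled percentage of methylated calls (at least 20 calls on scaffolds). Labels were permuted within age and sex for EGFP +ve against control cells and within age for females against males. For embryos against larvae they were permuted over all ages without strata. Label permutations were exact up to 4000000 arrangements and otherwise random, 100000 times. For scaffolds against chromosomes the signs of paired differences were exchanged 100000 times. Single scaffolds and chromosomes were tested with Mantel-Haenszel scores, permuting libraries, with Benjamini-Hochberg adjustment over both together. The test was run on simulated data with reads or calls drawn independently. Wilson intervals are at 95%. Alternatives were reads for calls, duplicates once, within runs, left-out replicates or scaffolds, other call minimums, chromosome 4 alone and a replicate block. The labels give a replicate letter and the number of fish, but not whether replicates are separate fish throughout or whether EGFP +ve and control libraries came from the same fish, so p-values measure only the spread between these libraries. Scaffolds named are the 10 with most calls, the 5 most and 5 least methylated, and those called. KN150160.1, KN149692.1 and KN149693.1 and single windows were named after their values were seen. The scaffolds, lists and tests were chosen with earlier results of these data known.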

Additional observations from a re-analysis of the deposited data

How the results depend on the processing

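Across 20 comparisons and 244 alternatives, 206 kept their sign and their side of the threshold. The cause of the others was not tested. With each read counted once, EGFP +ve minus control methylation was 4.27 points in females and 5.13 points in males of 35 to 50 dpf, embryo minus larva was 4.43 points in EGFP +ve and 3.64 points in control cells, all 4 then past the threshold, and the excess over chromosomes in EGFP +ve cells was 0.280 points. Without the 6 piled scaffolds as well, these 4 were 4.33, 4.77, 5.45 and 4.90 points, all past the threshold, and methylation of females minus males in EGFP +ve cells was -0.000609 points. On scaffolds with fewer than 100 calls, the excess over chromosomes was 1.01 points in EGFP +ve and 0.845 points in control cells, both no longer past the threshold, EGFP +ve minus control of the excess was 0.225 points, females minus males in EGFP +ve cells was -0.277 points, and EGFP +ve minus control in males passed at 6.68 points. Against chromosome 4 alone the excess was -0.0503 points in EGFP +ve and 0.839 points in control cells. Without the 6 piled scaffolds, an alternative added after seeing the data, methylation of females minus males was -0.562 points in EGFP +ve and -0.0971 points in control cells, embryo minus larva in control cells passed at 3.52 points, and the share of females minus males in control cells was 0.0505 points. Without KN149861.1 that share was 0.0554 points and methylation of females minus males in EGFP +ve cells -0.424 points. With duplicate reads counted once that share was 0.00955 points. Within sequencing runs, the share of EGFP +ve minus control at 70 dpf was -0.0134 points, and methylation of females minus males in EGFP +ve cells -1.05 points. With the end of chromosome 4 kept, the share of EGFP +ve minus control in females was -0.279 points, and that of females minus males in EGFP +ve cells -0.114 points. Counting reads gave 0.00264 points for the share of EGFP +ve minus control at 1 to 28 dpf.

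Leaving out each replicate letter in turn gave -0.0720 to 0.0361 points for the share of EGFP +ve minus control at 1 to 28 dpf, -0.253 to 0.120 in males, and -0.116 to 0.0800 for the share of females minus males in control cells. It gave -0.778 to 1.58 points for methylation of females minus males in control cells, and 1.42 to 2.50 points for methylation of EGFP +ve minus control over all ages. The number of scaffolds called in methylation between EGFP +ve and control cells, 1, was 0 to 3. It was 2 with majority states of reads in place of calls and 2 with at least 200 calls.

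With the replicate letter as a replicate block, that number was 0, the share of EGFP +ve minus control at 1 to 28 dpf was 0.00435 points, and no other call changed. Deviations of libraries with the same letter had a correlation of 0.126 for the share and 0.0537 for methylation over 57 pairs. Over 120 pairs with other letters the values were -0.0622 and -0.0245. These carry no separate information, since deviations from a group mean cancel within the group. With such low correlations over the same letter, the letters were not taken as pairs. Embryos and larvae have no such pairs. Between 204 and 3819 scaffold calls per library limit what can be seen at single ages.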
